A study of Mus musculus with 6 samples.

Results

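The genes described here are 32 genes of the lysosome, the acidic organelle in which cells break down proteins, glycans and lipids. They were listed by gene name, with no threshold on a measured value but with earlier results of these data known, and all 32 were found among the 45706 genes of the count table. By role, 11 are peptidases, 7 are glycosidases, 7 handle lipids, 6 are proteins of the lysosomal membrane and 1, Tfeb, is a transcription factor. Levels were measured by RNA sequencing in 3T3-L1 cells, a mouse embryonic fibroblast line used as a model of adipocytes, after 7 days of adipogenic differentiation. All 6 samples received the same cocktail of IBMX, insulin, dexamethasone and rosiglitazone. In the 3 scrambled control samples, labelled wild type, the cells carried a scrambled shRNA, and in the 3 RBMS1 knockdown samples they carried an shRNA against Rbms1, which encodes an RNA-binding protein. Per the methods of the study, the shRNAs were delivered by lentivirus with puromycin selection of stable cells, and the samples are described as biological replicates. Whether they came from separate transductions is not given in the sources used here, so the p-values measure the spread between these cultures only. The comparison asks how the lysosomal transcripts differed between RBMS1 knockdown and scrambled control adipocytes.

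Most soluble lysosomal enzymes are made in the endoplasmic reticulum, receive a mannose 6-phosphate tag in the Golgi and are carried by receptors to late endosomes and lysosomes, where a proton pump keeps the lumen acidic and many enzymes are cut to their active form. Membrane proteins of the LAMP family line the organelle and travel there by signals in their tails. TFEB and its relatives are basic helix-loop-helix factors that enter the nucleus when nutrients are scarce and bind the CLEAR element, a palindrome around an E-box, in the promoters of many of these genes. In adipocytes, lysosomes receive lipid droplets by autophagy, and lysosomal acid lipase, the product of Lipa, hydrolyses their triglycerides and cholesteryl esters.

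The promoters of these genes can be read for that element. RefSeq windows from 250 bases before to 50 bases after the annotated start (GRCm38.p6) were found for 28 of the 32 genes, and Asah1, Ctsb, Ctsh and Npc1 were not in the table. The E-box core CACGTG, which reads the same on both strands, lay in the windows of 11 of the 28 genes (39.3%), against 2187 of all 27025 genes of the table (8.09%). Its extension TCACGTGA, which contains the core and is also a palindrome, lay in 4 of the 28 genes (14.3%), against 304 genes of the table (1.12%). The full CLEAR palindrome GTCACGTGAC was found in 0 of the 28 and in 100 genes of the table (0.370%). A match describes letters in a window and does not show binding. The 4 genes with the extension are Ctsa, Ctsd, Mcoln1 and Gla. Their stretches are shown because they carry the longest match, with the core in capitals and all written 5′ to 3′ on the strand of the gene. Ctsa is given at chr2:164833749-164833778 and chr2:164833766-164833795 (plus strand), Ctsd at chr7:142387908-142387937 (minus strand), Mcoln1 at chr8:3500462-3500491 (plus strand), and Gla at chrX:134601215-134601244 and chrX:134601182-134601211 (minus strand).
Ctsa, upstream: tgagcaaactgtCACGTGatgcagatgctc
Ctsa, downstream: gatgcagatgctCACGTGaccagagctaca
Ctsd: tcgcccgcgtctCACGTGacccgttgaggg
Mcoln1: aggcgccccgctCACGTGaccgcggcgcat
Gla, upstream: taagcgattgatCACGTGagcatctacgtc
Gla, downstream: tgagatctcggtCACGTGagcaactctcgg

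Lamp1 is shown because its window held the most cores, 4 within the 80 bases before its start (chr8:13159081-13159160, plus strand), where no exon is annotated. Glb1 (chr9:114401018-114401047, plus strand), Naglu (chr11:101070009-101070038, plus strand) and Ctsf (chr19:4855074-4855103, plus strand) are shown because each held a single core and their levels, given below, lay apart between the groups. Ctsl also held a single core and lay apart, but its core lay far from the start and is not shown.
Lamp1: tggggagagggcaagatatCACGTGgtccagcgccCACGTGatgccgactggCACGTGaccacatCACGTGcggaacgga
Glb1: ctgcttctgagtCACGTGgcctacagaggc
Naglu: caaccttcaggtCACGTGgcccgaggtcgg
Ctsf: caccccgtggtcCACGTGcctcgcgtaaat

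The distance between core and start varied among these genes. The first base of the core was 48 bases before the start in Glb1, 73 in Naglu, 79 in Ctsf and 49 in Lgmn, but 245 and 98 in Ctsd, 227 and 194 in Gla and 236 in Ctsl. In Ctsa 1 of 2 cores lay 12 bases before the start and the other began at base 6 after it.

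**Figure D1:**
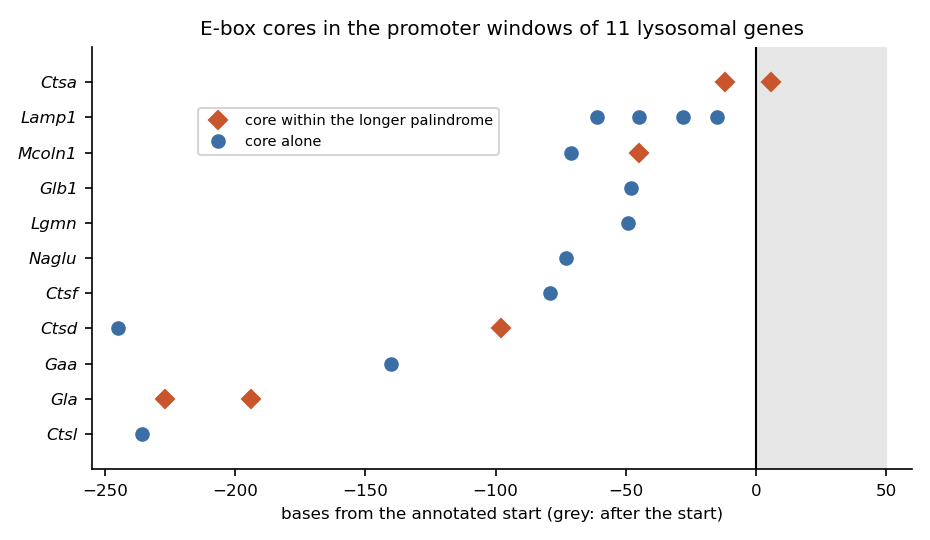
Position of each E-box core in the promoter windows of the 11 lysosomal genes that held one, in bases from the annotated start (0 line; the grey area lies after the start). Diamonds mark cores within the longer palindrome TCACGTGA and circles mark other cores; Lamp1 holds 4 cores within 61 bases of its start.

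The 6 libraries differed in depth and content. Total counts ranged from 3142695 in scrambled control replicate 2 to 11073098 in RBMS1 knockdown replicate 3. Ribosomal RNA remnants, counted as genes, made up 43.0% of scrambled control replicate 2, the shallowest library, and from 8.12% to 17.8% of the other 5. Levels below are TMM-normalized CPM, read counts scaled to a common library size by a factor that sets libraries against each other by the bulk of their genes. Rbms1 itself (chromosome 2, 60750193 to 60963192) was at 113, 102 and 99.6 CPM in scrambled control replicates 1, 2 and 3 and at 49.2, 61.4 and 84.0 CPM in RBMS1 knockdown replicates 1, 2 and 3. Every knockdown library lay below every control library, with a log2 fold change of -0.69 (SE 0.20, edgeR adjusted p = 0.185), and without knockdown replicate 3, the library with the highest Rbms1 of its group, it was -0.92 (edgeR adjusted p = 0.0708). Over the 17 alternatives it ran from -0.92 to -0.31, the latter with library sizes alone, and the adjusted p from 0.0708 to 0.572. The adipocyte markers Adipoq, Fabp4, Plin1 and 11 more were all detected and summed to between 13211 and 28037 CPM per library. Macrophages are rich in lysosomes, and of 11 macrophage markers 6 were at 0 counts in every library, Adgre1, Ptprc, C1qa, Fcgr1, Mrc1 and Tyrobp, while the 11 together summed to between 2.89 and 9.69 CPM.

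The lysosomal genes covered a wide range of levels. Per kilobase of exon, where levels of different genes can be compared, Psap was highest in the scrambled control at 330 ± 43.7 CPM per kb (SD, n = 3). Psap encodes the precursor of the saposins, small proteins that present sphingolipids to their hydrolases. Ctsd, the main aspartic protease of the lysosome, followed at 273 ± 7.13, Lamp1, an abundant glycoprotein of its membrane, at 247 ± 28.9, Laptm4a, a lysosomal transmembrane protein, at 132 ± 27.0 and Ctsb, a cysteine protease, at 89.1 ± 8.43 CPM per kb. Lamp1 and Ctsd, neighbours in that order, overlapped between samples, while Psap lay above Ctsd in every control. The same 4 genes held the first 4 places in RBMS1 knockdown, while Ctsb was 7th there at 62.9 ± 9.17 CPM per kb. At the other end were Gla at 2.94 ± 0.760, Tfeb at 2.20 ± 0.766 and Ctsf at 1.40 ± 0.235 CPM per kb in the scrambled control, where Gla and Tfeb overlapped. Ctss, a cathepsin of antigen-presenting cells, and Ctsh did not pass the filter on low counts. Ctss had 0 counts in all 6 libraries. For Ctsh the counts were 1, 2 and 0 in the controls and 0 in every knockdown library, where a count of 0 allows up to 3 counts, or 0.431, 0.351 and 0.220 CPM in knockdown replicates 1, 2 and 3.

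**Figure D2:**
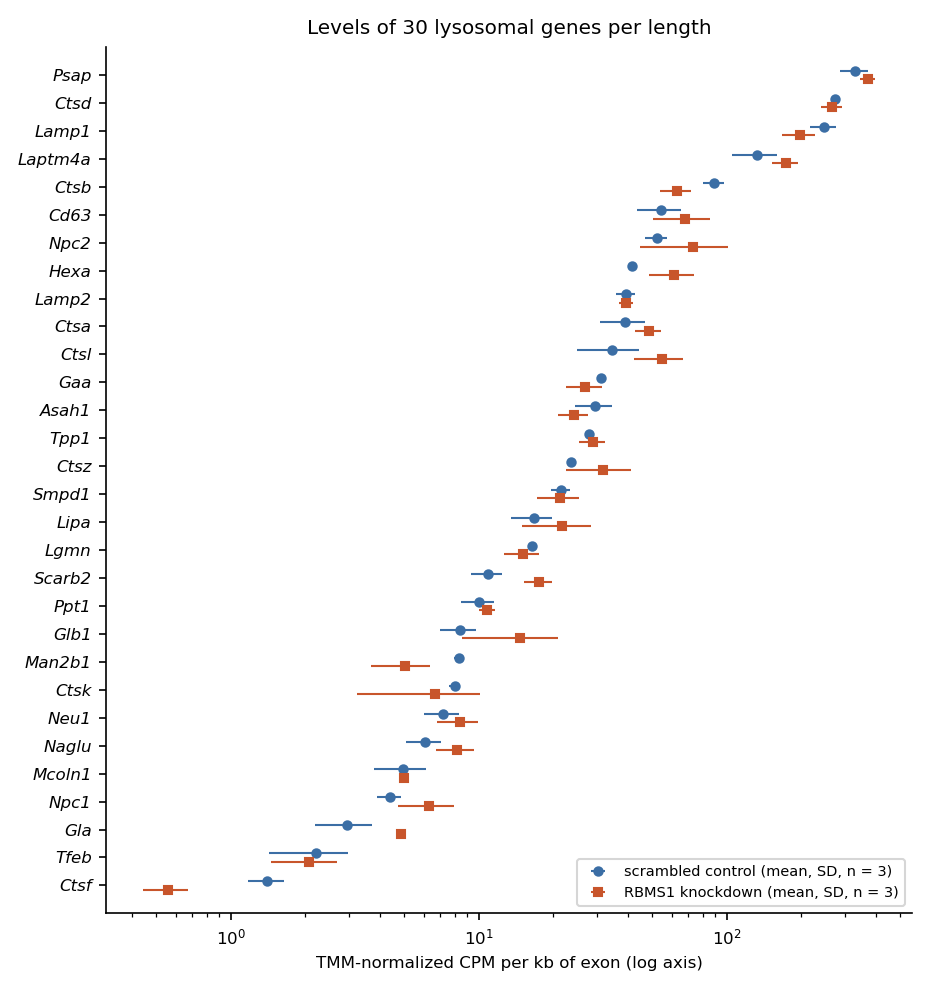
Levels of the 30 lysosomal genes that passed the filter on low counts, in TMM-normalized CPM per kilobase of exon on a log axis; circles and squares give the mean of 3 scrambled control and 3 RBMS1 knockdown samples and lines the SD. Psap, Ctsd and Lamp1 lead in both groups and Ctsf is last in both.

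None of the 30 tested genes passed an adjusted p of 0.1 or less in edgeR's quasi-likelihood test. The study used that cutoff with DESeq2 in its Results, while its methods state an adjusted p under 0.05. In edgeR 140 of all 11440 tested genes (1.22%) passed 0.1, 36 higher (0.315%) and 104 lower (0.909%). With library sizes alone in place of TMM these counts were 84 higher and 42 lower. limma-voom called none of the 30 genes either. DESeq2, the test of the study, called 1, Scarb2 (adjusted p = 0.0247), against 3.20% of the genes it tested. At an unadjusted p under 0.05 in edgeR, 6 of the 30 were higher and 3 lower in RBMS1 knockdown, against 5.45% and 6.98% of all tested genes. Leaving out RBMS1 knockdown replicate 1, edgeR called 2, Hexa (adjusted p = 0.0288) and Scarb2 (adjusted p = 0.0910), of 696 called among all 11724 genes tested without that library, and leaving out any other library it called 0 of the 30. Over all 17 alternatives the adjusted p of Scarb2 ran from 0.0247 to 0.404 and that of Hexa from 0.0288 to 0.486. The 3 knockdown samples lay entirely above or below the 3 controls in 10 of the 30 genes, 7 higher and 3 lower, where 18.5% of all tested genes lay apart, 8.96% higher and 9.55% lower. The median log2 fold change over the 30 genes was 0.14, against 0.0044 over all tested genes, and 19 of the 30 were above 0, against 50.4% of all tested genes. With library sizes alone the median of all tested genes was 0.37 and that of the 30 genes 0.50, with 27 above 0, so the gap to all genes was 0.14 under TMM and 0.13 there. By role the medians were -0.035 for the 9 tested peptidases, 0.43 for the 7 glycosidases, 0.18 for the 7 lipid-handling genes and 0.17 for the 6 membrane proteins.

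**Figure D3:**
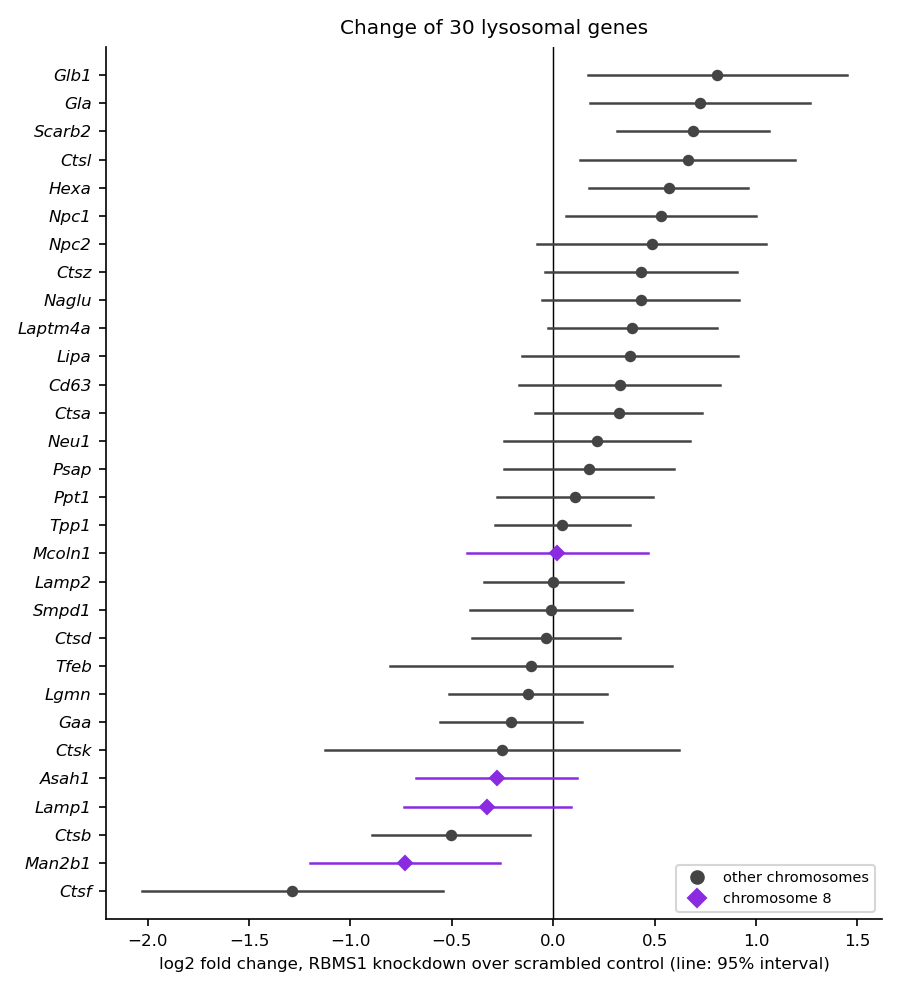
Log2 fold change of RBMS1 knockdown over scrambled control for the 30 tested lysosomal genes, with lines for the 95% interval of the edgeR fit; diamonds mark genes on chromosome 8. The points run from -1.29 for Ctsf to 0.81 for Glb1, and no gene passed an adjusted p of 0.1.

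Among the membrane proteins, Scarb2 had the smallest p of the 30 genes. Scarb2 (chromosome 5, 92441314 to 92506833) encodes LIMP-2, which carries glucocerebrosidase to the lysosome. It was at 66.5, 78.9 and 59.5 CPM in the scrambled control and at 124, 95.9 and 111 CPM in RBMS1 knockdown. All knockdown samples lay above all controls, and the fold was 1.61 (log2 fold change 0.69, SE 0.17, 95% interval 0.31 to 1.07, edgeR adjusted p = 0.128). Laptm4a was at 229, 190 and 285 CPM in the controls and 292, 280 and 350 CPM in the knockdown (log2 fold change 0.39, SE 0.19, edgeR adjusted p = 0.436). Its groups overlapped at control replicate 3 and knockdown replicate 2. Lamp1 was at 589, 742 and 648 CPM in the controls and 539, 442 and 600 CPM in the knockdown, again with an overlap (log2 fold change -0.32, SE 0.18, edgeR adjusted p = 0.511). The groups of the other membrane proteins overlapped as well. Lamp2, which acts in autophagosome fusion and chaperone-mediated autophagy, was at 337, 400 and 391 against 353, 371 and 403 CPM, with a log2 interval of -0.34 to 0.34. Mcoln1, a calcium channel of the lysosomal membrane, was at 41.7, 43.2 and 27.2 against 38.0, 36.5 and 38.8 CPM, with an interval of -0.43 to 0.47. Cd63, a tetraspanin of late endosomes, was at 180, 247 and 174 against 193, 237 and 323 CPM, with a log2 fold change of 0.33 and an interval of -0.17 to 0.82.

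The glycosidases held 4 of the 7 genes that lay apart on the higher side. Hexa (chromosome 9, 59539540 to 59565109), the alpha subunit of beta-hexosaminidase, was at 81.7, 82.4 and 83.8 CPM in the controls and 95.02, 128 and 145 CPM in the knockdown. All knockdown samples lay above the controls, with a coefficient of variation of 1.26% in the controls and 20.6% in the knockdown, and the fold was 1.48 (log2 fold change 0.57, SE 0.17, edgeR adjusted p = 0.210). Gla (chromosome X, 134588149 to 134601125), the alpha-galactosidase that is deficient in Fabry disease, was at 12.2, 9.43 and 7.23 CPM in the controls and 16.0, 15.5 and 16.2 CPM in the knockdown. Again every knockdown sample lay above the controls, but here the knockdown samples were the close ones, and the fold was 1.65 (log2 fold change 0.72, SE 0.24, edgeR adjusted p = 0.253). Glb1 (chromosome 9, 114401076 to 114474898), the beta-galactosidase used as a senescence stain, was at 28.1, 20.3 and 27.2 CPM in the controls and 37.8, 29.8 and 65.3 CPM in the knockdown. Knockdown replicate 3 stood well above the others, and the log2 fold change of 0.81 (SE 0.28, edgeR adjusted p = 0.277) was 0.42 without it (edgeR adjusted p = 0.527, with a range from 0.134 to 0.621 over the alternatives). Naglu, which removes N-acetylglucosamine from heparan sulfate, was at 18.6, 16.4 and 13.4 CPM against 20.1, 18.9 and 26.1 CPM (log2 fold change 0.43, SE 0.22, edgeR adjusted p = 0.460). The groups lay apart by a narrow gap between control replicate 1 and knockdown replicate 2.

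Other glycosidases lay the other way or overlapped. Man2b1 (chromosome 8, 85083270 to 85098282), the lysosomal alpha-mannosidase, was at 68.8, 63.5 and 68.8 CPM in the controls and 28.5, 42.6 and 49.99 CPM in the knockdown. All knockdown samples lay below the controls, and the log2 fold change was -0.73 (SE 0.21, edgeR adjusted p = 0.178). Gaa, which degrades glycogen, was at 151, 150 and 146 CPM against 115, 119 and 153 CPM, and Neu1, the lysosomal sialidase, at 31.4, 22.8 and 26.2 CPM against 25.3, 31.2 and 37.2 CPM. Both overlapped between the groups.

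**Figure D4:**
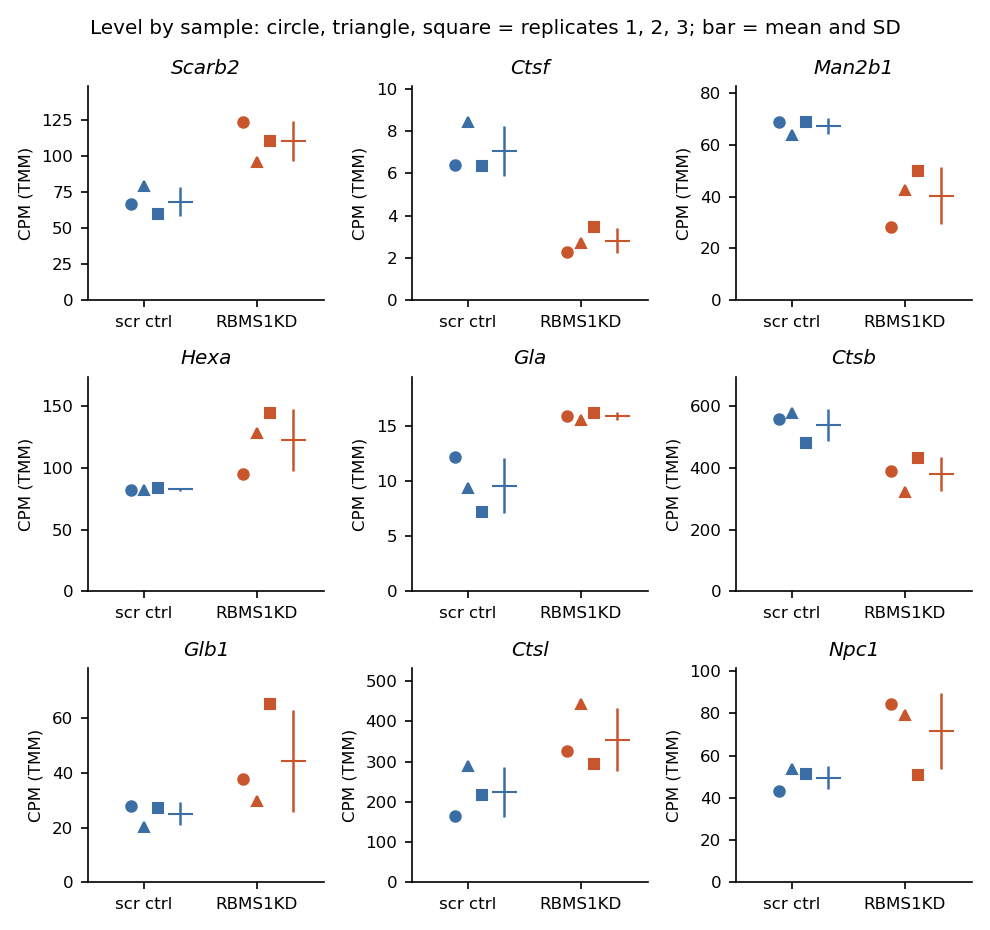
Level of 9 lysosomal genes in each sample, in TMM-normalized CPM on axes that start at 0; circles, triangles and squares are replicates 1, 2 and 3 of scrambled control (scr ctrl) and RBMS1 knockdown (RBMS1KD), with the mean and SD beside them. The 9 genes are those with an unadjusted p under 0.05 in edgeR, a choice that favors groups lying apart. The groups lie apart in 8 of the 9 genes, against 18.5% of all tested genes. They overlap in Npc1, where knockdown replicate 3 sits among the controls.

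The peptidases differed in direction among themselves. Ctsf (chromosome 19, 4855130 to 4860918), a cysteine cathepsin, had the largest difference of the 30 genes. It was at 6.41, 8.44 and 6.37 CPM in the controls and 2.30, 2.69 and 3.45 CPM in the knockdown, from 17 to 40 counts and from 16 to 47 counts per library. All knockdown samples lay below all controls, and the log2 fold change was -1.29 (SE 0.33, 95% interval -2.03 to -0.54, edgeR adjusted p = 0.146). Ctsb (chromosome 14, 63122462 to 63145923), a cysteine protease with endopeptidase and dipeptidase activity, was at 557, 579 and 482 CPM in the controls and 389, 322 and 432 CPM in the knockdown. Its groups also lay apart, with the knockdown lower (log2 fold change -0.50, SE 0.17, edgeR adjusted p = 0.270). With libraries scaled by their total counts alone, the groups of Ctsb and of Man2b1 overlapped, while those of Npc1, Npc2, Lipa, Laptm4a, Lamp2, Cd63 and Ctsa, which overlap under TMM, lay apart with the knockdown higher. Over the 17 alternatives the log2 fold change of Ctsb ran from -0.60 to -0.10 and that of Man2b1 from -0.91 to -0.34. Ctsl (chromosome 13, 64359337 to 64370890), a related endopeptidase, lay on the other side, at 165, 290 and 217 CPM in the controls and 326, 444 and 294 CPM in the knockdown. Control replicate 2 and knockdown replicate 3 nearly met (log2 fold change 0.66, SE 0.24, edgeR adjusted p = 0.284). Ctsz, a carboxypeptidase, was at 34.3, 34.7 and 32.9 CPM against 39.0, 37.2 and 61.1 CPM. Knockdown replicate 3 again stood apart, and the log2 fold change of 0.43 (SE 0.21, edgeR adjusted p = 0.446) was 0.17 without it.

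The remaining peptidases overlapped between the groups. Ctsd was at 660, 637 and 627 CPM against 627, 563 and 687 CPM (log2 fold change -0.035, SE 0.16, edgeR adjusted p = 0.956), with an interval from -0.40 to 0.33. Ctsa, the carboxypeptidase that protects Glb1 and Neu1 in their complex, was at 174, 225 and 151 CPM against 198, 244 and 245 CPM. Tpp1, a tripeptidyl peptidase, was at 150, 139 and 144 CPM against 152, 129 and 166 CPM. In none of the 3 did the groups lie apart. Lgmn, the asparaginyl endopeptidase that processes other cathepsins, was at 39.8, 38.2 and 36.8 CPM against 28.5, 38.1 and 38.5 CPM. Ctsk, the collagen-degrading cathepsin, was at 12.8, 11.9 and 11.5 CPM against 4.17, 12.2 and 13.9 CPM. In both, knockdown replicate 1 alone was below the controls and the other 2 knockdown samples were at or near their level.

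In all 7 lipid-handling genes the groups overlapped after TMM scaling. Npc1, the membrane protein that exports cholesterol from the lysosome, was at 43.4, 53.6 and 51.4 CPM in the controls and 84.5, 79.1 and 50.9 CPM in the knockdown (log2 fold change 0.53, SE 0.21, edgeR adjusted p = 0.336). Its partner Npc2, which hands cholesterol to it in the lumen, was at 281, 256 and 314 CPM against 315, 301 and 576 CPM. Knockdown replicate 3 was the lowest of its group for Npc1 and the highest for Npc2. Lipa was at 124, 87.8 and 127 CPM against 197, 135 and 108 CPM (log2 fold change 0.38, SE 0.24, edgeR adjusted p = 0.561). Psap was at 1036, 877 and 801 CPM against 1005, 962 and 1100 CPM, and Ppt1, which removes palmitate from proteins, at 41.7, 30.8 and 38.2 CPM against 41.5, 36.4 and 41.7 CPM. In both the knockdown samples lay within or just above the range of the controls. Smpd1, the acid sphingomyelinase, was at 77.1, 64.5 and 73.1 CPM against 76.2, 55.8 and 81.5 CPM, and Asah1, the acid ceramidase that acts after it, at 92.3, 87.8 and 119 CPM against 82.9, 70.1 and 93.5 CPM. Tfeb, the transcription factor, was at 17.5, 9.93 and 9.98 CPM in the controls and 15.7, 10.4 and 9.10 CPM in the knockdown (log2 fold change -0.11, SE 0.31, edgeR adjusted p = 0.924). Replicate 1 was the highest sample in both groups, and the interval ran from -0.80 to 0.59.

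**Figure D5:**
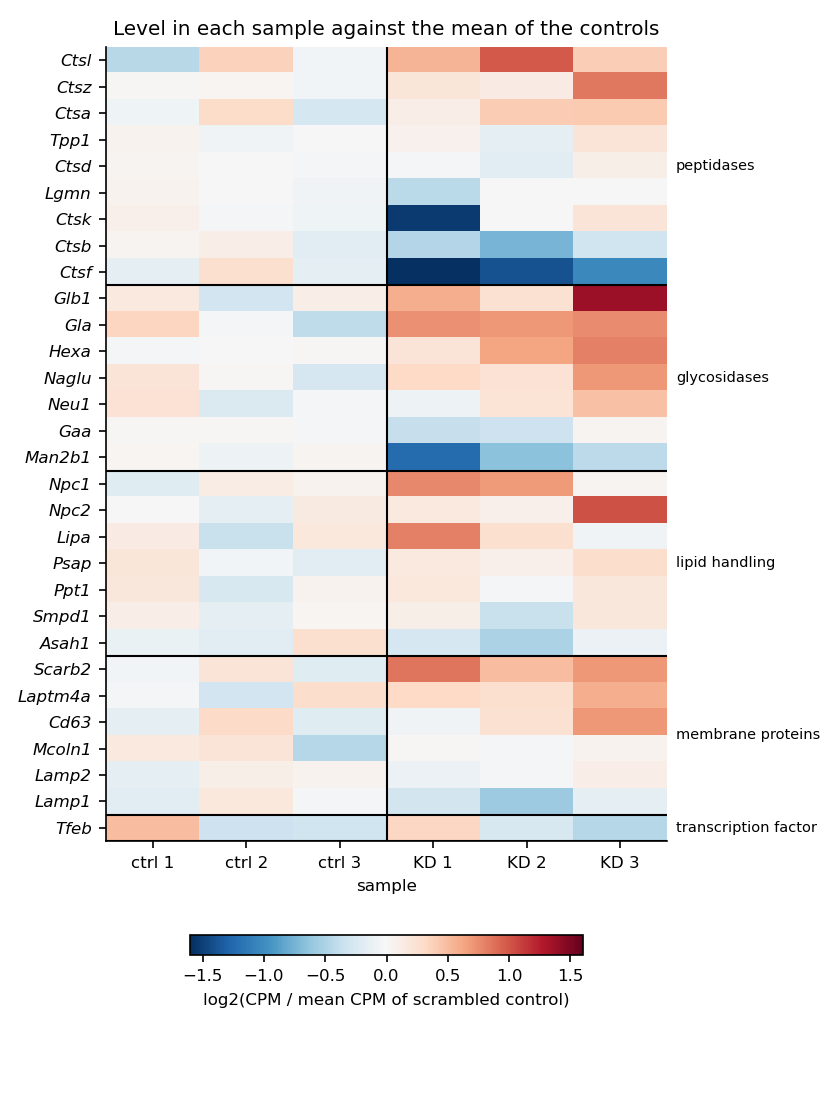
Level of each tested lysosomal gene in each sample as log2 of its CPM over the mean CPM of the 3 scrambled control samples, by role (color scale from blue, below, to red, above). Knockdown replicate 3 holds the highest level of the 6 samples in 18 of the 30 genes, a count that was not made over all tested genes.

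The members' levels also differed between single libraries. RBMS1 knockdown replicate 3, the deepest library, held the highest of the 6 levels in 18 of the 30 genes and the highest of its group in 25. These counts were not made over all tested genes, so they cannot be read as particular to the lysosomal genes. The part of this library in the differences was measured by leaving it out. Without it the median log2 fold change of the 30 genes was 0.077 and 18 were above 0. Without scrambled control replicate 1 the median was 0.25. Leaving out 1 library at a time, the log2 fold change of Lipa ran from 0.12 (without knockdown replicate 1) to 0.56, that of Lamp1 from -0.42 to -0.20 (without knockdown replicate 2), that of Naglu from 0.28 (without knockdown replicate 3) to 0.56 and that of Laptm4a from 0.26 (without scrambled control replicate 2) to 0.56. The same range was 0.11 to 0.50 for Cd63 and 0.12 to 0.67 for Npc2, both lowest without knockdown replicate 3, and 0.20 to 0.49 for Ctsa and 0.096 to 0.29 for Psap, both lowest without scrambled control replicate 3. It was 0.076 (without knockdown replicate 3) to 0.36 for Neu1, -0.38 to -0.13 (without scrambled control replicate 3) for Asah1 and -0.35 to -0.12 (without knockdown replicate 1) for Gaa. The coefficient of variation over the 3 samples had a median of 13.8% in the controls and 16.9% in the knockdown for the lysosomal genes, and of 17.2% and 18.3% for all tested genes.

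The lysosomal genes on chromosome 8 differed from the others in the sign of their median. Of 624 tested genes on that chromosome, 562 were below 0, with a median log2 fold change of -0.38, and 25 (4.01%) were called lower. The 4 lysosomal genes there, Man2b1, Lamp1, Asah1 and Mcoln1, had a median of -0.30, and the 26 tested elsewhere had a median of 0.27 with 18 above 0. Once the chromosome medians of every sample were taken out, the log2 fold change of Man2b1 was -0.34 (SE 0.21, edgeR adjusted p = 0.648, the highest of a range from 0.102 over the alternatives), that of Lamp1 0.069 and that of Asah1 0.11. Mcoln1, the only one of the 4 above 0 in the main fit (0.020), ran from -0.17 to 0.42 over all 17 alternatives. The part of the chromosome in the levels of these 4 genes was not tested further.

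The 32 genes together took 0.557%, 0.352% and 0.505% of the counts of the controls and 0.615%, 0.579% and 0.777% of those of the knockdown. With genes derived from ribosomal RNA left out of the totals, the shares were 0.646%, 0.619% and 0.615% against 0.682%, 0.691% and 0.846%. The knockdown libraries lay above the controls with both totals, but not after TMM scaling, where the genes summed to 5347, 5498 and 5199 CPM in the controls and 5459, 5289 and 6320 CPM in the knockdown and the groups overlapped. The sum therefore depended on the scaling. The share of a gene within the list's own counts is free of it, but such shares add up to the whole, so 1 gene can have a lower share because others are higher, and there is no share over all genes to set beside them. Within the list, 6 genes took a higher share in every knockdown library than in any control, 7 a lower share, and 17 of the 30 overlapped. The higher ones were Hexa, Scarb2, Ctsz, Glb1, Naglu and Gla. The lower ones were Lamp1, Ctsd, Ctsb, Gaa, Asah1, Man2b1 and Ctsf, and of these Ctsd had a log2 fold change near 0 (-0.035). Lamp1 took 12.3% ± 1.25 of the list's counts in the controls and 9.24% ± 0.783 in the knockdown (SD, n = 3), and Ctsb 10.1% ± 0.702 and 6.68% ± 0.537.

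Genes with and without an E-box core in their promoter window both held differences of either sign. The 11 genes with a core ran from -1.29 (Ctsf) to 0.81 (Glb1) on the log2 scale, with a median of 0.020 and 6 above 0. The 16 tested genes with a window and no core ran from -0.73 (Man2b1) to 0.69 (Scarb2), with a median of 0.20 and 12 above 0. The 4 genes with the extension TCACGTGA, whose sequences are given above, had log2 fold changes of 0.72 for Gla, 0.32 for Ctsa, 0.020 for Mcoln1 and -0.035 for Ctsd. Lamp1, with its 4 cores, was at -0.32.

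The wider pathway was covered by 6 lists with 122 further genes, of which 116 were tested. None was called in either direction by edgeR at an adjusted p of 0.1 or less, and 11 were higher and 4 lower at an unadjusted p under 0.05, against 5.45% and 6.98% of all tested genes. Their median log2 fold change was 0.087 with 73 of the 116 above 0, against 0.0044 and 50.4% for all tested genes. Without RBMS1 knockdown replicate 1, edgeR called 3 of these genes higher, among them Gabarapl1 and Atg7, and 2 lower, Gm2a and Mfsd8, of the 696 genes called in that fit. All 17 listed subunits of the proton pump, accessory ones among them, were tested, with a median of 0.11. Atp6ap2, an accessory subunit of that pump, had the smallest p of them, at 38.8, 40.2 and 42.0 CPM in the controls and 62.2, 49.7 and 71.8 CPM in the knockdown. Every knockdown sample was above the controls (log2 fold change 0.60, SE 0.17, edgeR adjusted p = 0.179).

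Other hydrolases and activators had a median log2 fold change of 0.13 over 28 tested genes. Their smallest p was that of Aga, an enzyme of glycoprotein breakdown on chromosome 8 (log2 fold change -0.53, SE 0.18, edgeR adjusted p = 0.270). Other membrane proteins had a median of 0.13 over 18 tested genes, with Tmem192, also on chromosome 8, at 21.0, 17.9 and 22.5 CPM against 10.5, 11.9 and 13.8 CPM (log2 fold change -0.76, SE 0.21, edgeR adjusted p = 0.157). For the 18 genes that sort enzymes to the lysosome the median was 0.035. M6pr, the smaller of the mannose 6-phosphate receptors, was at 77.4, 74.9 and 78.3 CPM against 104, 95.7 and 97.3 CPM, with every knockdown sample above the controls (log2 fold change 0.37, SE 0.13, edgeR adjusted p = 0.301). In the list of TFEB relatives and mTORC1 components the median was 0.058 over 19 tested genes, and Mitf, a relative of TFEB, was at 11.7, 8.44 and 11.9 CPM against 12.1, 16.2 and 20.6 CPM (log2 fold change 0.60, SE 0.26, edgeR adjusted p = 0.391). In the 16 autophagy genes 8 were above 0 and 8 below. Atg7, the activating enzyme for the conjugation of ATG8 proteins to lipid, was at 24.7, 21.3 and 20.3 CPM against 29.0, 37.4 and 43.4 CPM (log2 fold change 0.73, SE 0.20, edgeR adjusted p = 0.161).

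Markers of the cell state differed between the same libraries. Of 14 adipocyte markers 13 were below 0, with a median log2 fold change of -0.42. Their summed level was 24959, 25998 and 28037 CPM in the controls and 24018, 13211 and 15818 CPM in the knockdown. Lpl, on chromosome 8, was the highest of them in every library, at 12275, 11958 and 14512 CPM against 10210, 5350 and 5595 CPM. Cd36, the 1 marker above 0, was higher in every knockdown sample than in any control (log2 fold change 0.72, SE 0.21, edgeR adjusted p = 0.183). The only marker called, Retn, also lies on chromosome 8 (log2 fold change -1.67, SE 0.36, edgeR adjusted p = 0.0967). The fibroblast and preadipocyte markers summed to 11977, 10630 and 10389 CPM in the controls and 5828, 12885 and 13234 CPM in the knockdown. Col1a1, Col1a2 and Col3a1 had the highest levels in these sums. Knockdown replicate 1 had the lowest fibroblast and the highest adipocyte sum of its group. Of the 11 tested fibroblast and preadipocyte markers 8 were below 0, with a median log2 fold change of -0.085. Their smallest p was that of Pdgfra (log2 fold change -0.87, SE 0.23, edgeR adjusted p = 0.155). Of the macrophage markers only Cd14 and Cd68 passed the filter, with Cd14 at 0.94 on the log2 scale (SE 0.52, edgeR adjusted p = 0.503). In these bulk samples fewer cells of a type and less RNA per cell cannot be told apart, and the part of these markers in the lysosomal levels was not tested.

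Some of the counts may be shared with overlapping genes. In the GENCODE annotation, exons of 10 of the 32 genes overlap those of another gene, most of them on the opposite strand. Ctsd shares 34.4% of its exon bases with a predicted gene on its own strand, Gm49369. Ctsl shares 26.8% with an antisense transcript and 6.09% with a pseudogene on its own strand. Ctsb shares 12.8% with Fdft1 and Hexa 12.8% with Tmem202, both on the opposite strand. The libraries were stranded, but the strand setting of the counting is not given in the sources used here, and the levels of these genes are uncertain to that extent.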

How the data were processed

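RNA from 6 cultures of 3T3-L1 adipocytes, 3 scrambled control and 3 RBMS1 knockdown, was sequenced by the authors after ribosomal RNA depletion. Per the submitters' notes, reads were trimmed (Trim Galore 0.6.7) and aligned to GRCm38 (STAR 2.7.10a), and Salmon 1.9.0 gave the deposited values, estimated counts per gene without normalization. The annotation release is not given in the sources used here. Here the estimated counts were rounded (3.97% to 7.78% of values per library were not whole, tolerance 1e-06) and then fitted with edgeR 4.0.16 under R 4.3.3 (filterByExpr with a minimum count of 10, TMM, glmQLFit, glmQLFTest) on condition alone. P-values were adjusted by Benjamini-Hochberg over the 11440 genes that passed, and a gene was called at 0.1 or less, the cutoff in the Results of the study. Its methods state an adjusted p under 0.05. The fit was tested on simulated data. The SE is the log2 fold change divided by the root of F. Positions and exon lengths are from GENCODE M21 (GRCm38) and promoter windows from RefSeq (GRCm38.p6). The members and lists were chosen with earlier results of these data known. Full statistics are given for the 12 members with the smallest p, for Ctsd, Ctsb, Lamp1, Lipa and Tfeb, and for the called gene or the smallest p of each other list. Alternatives were DESeq2 1.42.0, limma-voom (limma 3.58.1), other scalings and filters, a replicate block, each library left out, and removal of chromosome medians or of trends with GC content and length (loess, span 0.3). The earlier edgeR quasi-likelihood estimates were added after seeing the data. Sampling precision follows the depth, from 3142695 to 11073098 counts per library. Replicates within a group differed by more than the sampling noise, so none was counted as a duplicate. Single values of 1 gene of the wider lists are not reported here.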

Additional observations from a re-analysis of the deposited data

How the results depend on the processing

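Over all tested genes, 36 were called higher and 104 lower in RBMS1 knockdown. The counts were 145 and 285 with DESeq2, 84 and 42 with library sizes alone, 88 and 180 with no low-count filter and 17 and 56 with chromosome medians removed, while limma-voom called 19 higher. Leaving out 1 library gave from 0 to 270 higher and from 12 to 426 lower, the highest of both without RBMS1 knockdown replicate 1. The count of lysosomal genes called higher was 0, but 1 (Scarb2) with DESeq2, library sizes alone (adjusted p = 0.0946) and no low-count filter (adjusted p = 0.0951), and from 0 to 2 when 1 library was left out. The wider lists had from 0 to 3 called higher and from 0 to 2 lower when 1 library was left out, the calls all without RBMS1 knockdown replicate 1. With library sizes alone the median log2 fold change of the 30 genes was 0.50, and 14 of the 30 genes lay apart higher and 1 lower, where 26.1% of all tested genes lay apart higher and 1.54% lower. The log2 fold change of Rbms1 ran from -0.92 to -0.52 over the libraries left out and was -0.31 with library sizes alone.

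The sign of 12 lysosomal genes changed under some settings, none with a call, among them Lamp1, Asah1, Ctsk and Gaa, whose log2 fold changes were -0.32, -0.28, -0.25 and -0.21. With library sizes alone the log2 fold change was 0.089 for Lamp1, 0.088 for Asah1, 0.18 for Gaa, 0.25 for Lgmn, 0.13 for Ctsk, 0.21 for Tfeb, 0.35 for Ctsd and 0.36 for Smpd1. With chromosome medians removed it was 0.069 for Lamp1, 0.11 for Asah1, 0.011 for Ctsd, 0.038 for Smpd1 and -0.015 for Lamp2. With the trend of GC content and length removed it was 0.0075 for Tfeb, 0.010 for Ctsd, 0.027 for Smpd1 and -0.049 for Lamp2. Smpd1 was at 0.0027 with DESeq2 and 0.010 with no low-count filter, and Lamp2 at -0.0079 with limma-voom. Over the libraries left out the ranges were -0.20 to 0.010 for Lgmn, -0.56 to 0.12 for Ctsk, -0.0053 to 0.21 for Ppt1, -0.36 to 0.24 for Tfeb, -0.034 to 0.15 for Tpp1, -0.10 to 0.050 for Ctsd, -0.17 to 0.13 for Mcoln1, -0.11 to 0.15 for Smpd1 and -0.067 to 0.051 for Lamp2. The cause was not tested.

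Same-numbered samples of the 2 groups were compared by the correlation of their deviations from the group means across genes, which was -0.14, 0.078 and -0.028. Samples with unlike numbers had correlations from -0.17 to 0.21. The same-numbered samples thus did not stand out, which does not show whether the cultures were run in pairs. With the replicate block 6 genes were called higher and 33 lower, and 0 lysosomal genes.

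With 3 samples a group the intervals were wide, and they are not adjusted for the number of genes tested. Scarb2, for example, had an interval of 0.31 to 1.07 but was not called in the main fit. An absent call thus does not show the absence of a difference. The SE was largest for Ctsk (0.39), Ctsf (0.33) and Tfeb (0.31). Scrambled control replicate 2, the shallowest library with the most ribosomal RNA, was kept except where each library was left out in turn.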
